A study of Mus musculus with 6 samples.

Results

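The genes described here are the ligands, receptors and decoy of the osteoclast supply system, namely *Tnfsf11* (RANKL), *Tnfrsf11a* (RANK), *Tnfrsf11b* (osteoprotegerin, OPG), *Csf1*, *Csf1r* and *Il34*, and they were taken by symbol as 6 of the 32286 genes listed in the matrices. They were followed through DID ("Digits in a Dish") cultures, which are high-density cultures of dissociated distal forelimb mesenchyme pooled from E11.5 embryos of the outbred CD-1 mouse. No allele or drug distinguished the groups. The 6 libraries were made from Day 2, Day 7 and Day 10 of culture, with replicates A and B from 2 independent cultures at each day.

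Osteoclasts are bone-resorbing cells that form by fusion of precursors of the macrophage lineage. CSF1, and in some tissues IL-34, keep those precursors alive and dividing through the receptor CSF1R, while RANKL on mesenchymal or cartilage cells binds RANK on the precursor and drives it toward the osteoclast. OPG is a secreted decoy receptor that binds RANKL and so withholds it from RANK.

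Counts are of unique molecular identifiers (UMIs), each standing for 1 captured RNA molecule, and a level is given in CPM, UMIs of a gene scaled to the same fixed total of UMIs in every sum of cells. After the study's limits on cells, 72099 of 91215 barcodes were kept, from 9448 to 16486 per library, and the library sums held from 178022112 to 260245417 UMIs. The median UMI count of a cell was 18587 (A) and 3871 (B) for Day 2, 8062 and 9337 for Day 7, and 24197 and 22128 for Day 10, so unthinned shares of cells with a UMI carry the depth of their library. Each of the 15 pairs of libraries shared 24 to 67 cell barcodes, at most 0.543% of a library. Doublets were not removed and no caller was run.

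The promoters are shown because the members differ in the sequence before their start sites as well as in the cells that hold their RNA. For 3 members the 250 bases upstream of the start site in the RefSeq table of GRCm38.p6 are printed 5′ to 3′ on the strand of the gene, with motif matches in capitals. The core of a TATA box was searched as TATAA. The GC box that SP1 binds was searched as GGGCGG, and the kappa-B consensus that NF-kB binds was searched in full.
Tnfsf11: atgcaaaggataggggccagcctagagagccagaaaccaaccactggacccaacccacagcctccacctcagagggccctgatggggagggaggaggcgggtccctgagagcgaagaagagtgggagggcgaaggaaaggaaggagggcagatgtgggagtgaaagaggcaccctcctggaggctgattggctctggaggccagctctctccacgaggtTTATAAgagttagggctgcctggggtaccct
Tnfrsf11a: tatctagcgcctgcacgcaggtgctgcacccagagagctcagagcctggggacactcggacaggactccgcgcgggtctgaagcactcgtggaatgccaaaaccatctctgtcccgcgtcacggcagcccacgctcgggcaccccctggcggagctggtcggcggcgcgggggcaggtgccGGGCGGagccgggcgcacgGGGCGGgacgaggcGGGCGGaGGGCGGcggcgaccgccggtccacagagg
Csf1: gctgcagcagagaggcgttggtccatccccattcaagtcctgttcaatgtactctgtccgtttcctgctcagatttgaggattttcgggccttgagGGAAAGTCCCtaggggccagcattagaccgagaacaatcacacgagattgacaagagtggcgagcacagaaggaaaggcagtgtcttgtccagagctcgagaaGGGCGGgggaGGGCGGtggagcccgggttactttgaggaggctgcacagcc
The *Tnfsf11* window lies at chr14:78308044-78308293 on the minus strand, has a GC content of 60.4%, and holds TATAA from base -30 to base -26 before the start, with an overlapping match of the same letters on the other strand from -31 to -27. The *Tnfrsf11a* window, at chr1:105780473-105780722 on the plus strand, has a GC content of 73.6% and 4 GC boxes, beginning at -69, -50, -36 and -29, and no TATAA. The *Csf1* window, at chr3:107760470-107760719 on the minus strand, has a GC content of 56.4%, GC boxes at -51 and -41, and the NF-kB letters on the opposite strand from -154 to -145. Searched on both strands of 32851 promoter windows of the same length, the TATA box core was found in 22.8%, the GC box in 32.7% and the NF-kB site in 0.140%. The core bound by PU.1, searched as GAGGAA and held by 23.3% of the windows, did not match in the 3 windows shown. Nor did AGGTCA, which nuclear receptors bind and 14.02% hold. A match of letters is not evidence of binding, and the absence of these letters from a window says nothing of the factor.

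In GRCm38, *Tnfsf11* spans chr14:78277445-78308043 (minus strand), *Tnfrsf11a* chr1:105780718-105847981 (plus), *Tnfrsf11b* chr15:54250619-54278484 (minus), *Csf1* chr3:107741048-107760469 (minus) and *Il34* chr8:110741829-110805924 (minus). *Il34* overlaps the antisense genes Gm15894 and Gm15895, and *Csf1r* overlaps *Hmgxb3* on the opposite strand. The strand setting of the counting is not given in the sources used here, so reads shared with these neighbours may not have been told apart.

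The first question was how the supply of each ligand, the decoy and the receptors changed as the cultures aged. All 6 members rose from Day 2 to Day 7 and again from Day 7 to Day 10. For none of them did the replicates of successive days overlap, but how often this holds among all genes was not counted. Genes called were common in these comparisons. From Day 2 to Day 7, 70.3% of the 18987 genes tested were called, 35.7% higher and 34.6% lower. From Day 7 to Day 10 these shares were 52.2% and 26.3%, and from Day 2 to Day 10 they were 77.3% and 39.0%. The median log2 change of all genes lay between -0.02 and 0.01 in the 3 comparisons.

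*Tnfsf11*, the ligand that drives osteoclast formation, was measured at 1.19 and 1.10 CPM in replicates A and B of Day 2, at 2.74 and 2.13 on Day 7, and at 3.96 and 4.03 on Day 10. These levels rest on 244, 196, 571, 426, 1031 and 940 UMIs in the same order. The 2 libraries of each day lay close together and below those of the next day. The log2 change was 1.37 (SE 0.13) from Day 2 to Day 7, with an adjusted p of 1.9e-05 in edgeR's quasi-likelihood test with Benjamini-Hochberg adjustment, the test behind every adjusted p in these comparisons. From Day 7 to Day 10 it was 0.69 (SE 0.12, adjusted p = 0.0018), and over the whole course *Tnfsf11* rose 4.18-fold. In whole-culture sums, more cells of a kind and more RNA per cell cannot be told apart.

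*Tnfrsf11b*, the decoy, was at 7.71 and 7.95 CPM on Day 2, 12.6 and 11.4 on Day 7, and 23.4 and 23.4 on Day 10. In the fit *Tnfrsf11b* rose by steps of like size. The log2 change was 0.90 (SE 0.06, adjusted p = 1.7e-06) and then 0.94 (SE 0.06, adjusted p = 1.5e-05). The fitted rise was 3.58-fold in all. The fit scales libraries by factors that the printed CPM leave out, and these enlarge rises from Day 2. In the printed CPM the second step was the larger. Decoy and ligand thus rose side by side. The number of OPG UMIs per RANKL UMI was 6.49 and 7.22 on Day 2, 4.62 and 5.39 on Day 7, and 5.91 and 5.81 on Day 10. The ratio was lowest on Day 7 in both replicates and its day ranges did not overlap, but it was not tested. UMIs from 3′ counting are captured with an efficiency that can differ between genes, so a ratio compares libraries and does not give molecules of decoy per ligand.

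*Csf1*, from 1675 to 10917 UMIs a library, was at 9.39 and 9.41 CPM on Day 2, at 29.3 and 29.1 on Day 7, and at 41.9 and 39.7 on Day 10. Most of its rise came early, with a log2 change of 1.92 (SE 0.05, adjusted p = 1.5e-08) to Day 7 and of 0.46 (SE 0.05, adjusted p = 0.00018) from there to Day 10. *Il34*, the other ligand of CSF1R, was rare. Its libraries held 10 and 9 UMIs on Day 2, 66 and 49 on Day 7, and 143 and 131 on Day 10, or 0.0486, 0.0506, 0.316, 0.244, 0.549 and 0.562 CPM. Its log2 change was 2.77 (SE 0.28, adjusted p = 2.5e-05) and then 0.96 (SE 0.20, adjusted p = 0.0046), and it rose 13.3-fold in all against 5.20-fold for *Csf1*. For each *Il34* UMI the cultures held 193 and 186 *Csf1* UMIs on Day 2 and 76.3 and 70.8 on Day 10.

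The receptors follow. *Csf1r* was at 1.29 and 0.640 CPM on Day 2, 1.32 and 2.10 on Day 7, and 5.26 and 7.05 on Day 10. The values of Day 2 replicate A and Day 7 replicate A nearly touched. The log2 change to Day 7 was 1.09 (SE 0.32, adjusted p = 0.015) and from Day 7 to Day 10 it was 1.82 (SE 0.29, adjusted p = 0.0012). The earlier call was lost without Day 2 replicate B (log2 change 0.68, adjusted p = 0.086) and without Day 7 replicate B (0.72, adjusted p = 0.096). *Tnfrsf11a* was at 0.302 and 0.169 CPM, then 0.599 and 0.773, then 1.35 and 1.99, with log2 changes of 1.81 (SE 0.31, adjusted p = 0.00070) and 1.26 (SE 0.26, adjusted p = 0.0042). From Day 2 to Day 10 *Csf1r* rose 7.54-fold and *Tnfrsf11a* 8.36-fold.

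**Figure D1:**
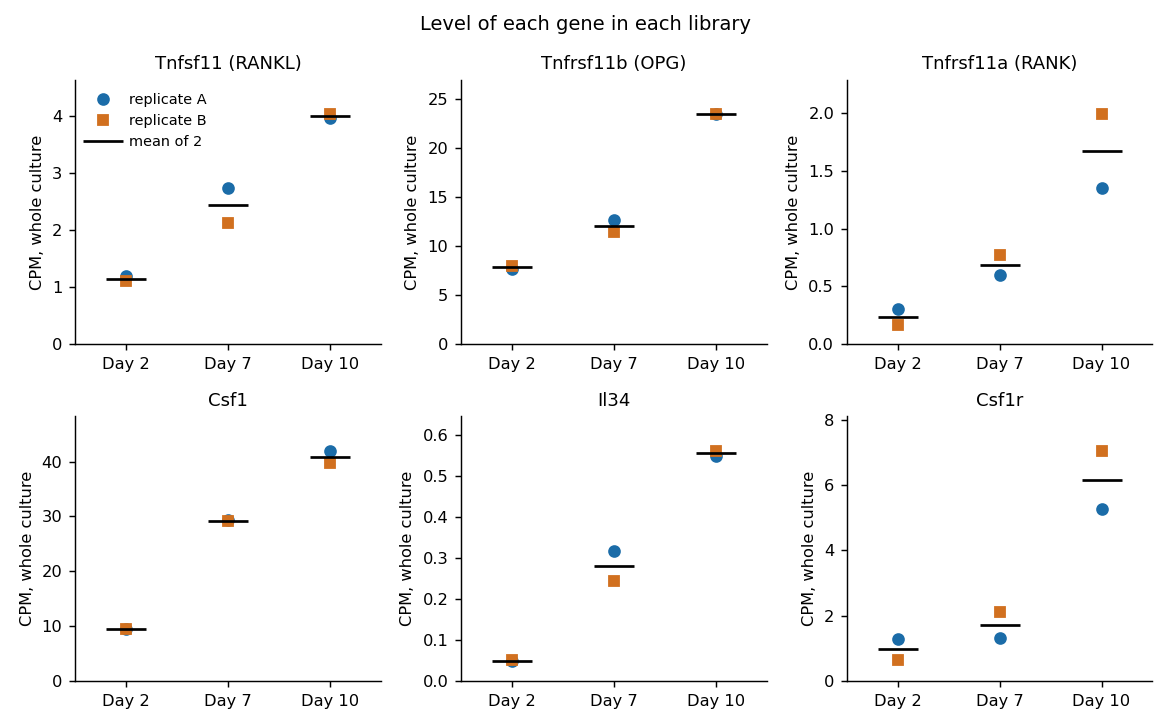
Level of each member in CPM of the whole culture (vertical axis, from 0) on Day 2, Day 7 and Day 10, with a circle for replicate A, a square for replicate B and a line at their mean. All 6 members rose at each step, *Csf1* mostly before Day 7 and *Csf1r* mostly after it.

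The balance of ligand and receptor differed between days. The cultures held 7.29 and 14.7 *Csf1* UMIs per *Csf1r* UMI on Day 2, 22.2 and 13.8 on Day 7, and 7.97 and 5.64 on Day 10. The Day 10 ratios lay below both Day 7 ratios and overlapped those of Day 2. RANKL UMIs per RANK UMI were 3.94 and 6.53 on Day 2, 4.57 and 2.75 on Day 7, and 2.94 and 2.03 on Day 10, so Day 10 lay below Day 2 and overlapped Day 7. *Csf1r* UMIs per RANK UMI stayed between 2.21 and 4.27 in all 6 libraries.

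The second question was which cells held ligand, decoy and receptor. Cells with a UMI of at least 3 of the 6 myeloid genes *Tyrobp*, *Fcer1g*, *C1qa*, *C1qb*, *C1qc* and *Trem2*, none of them a member, are called myeloid-marker cells. There were 24 and 19 of them on Day 2, 33 and 53 on Day 7, and 142 and 198 on Day 10, which is 0.254% and 0.115%, 0.245% and 0.429%, and 1.37% and 1.99% of the libraries. Their number moved with the levels of both receptors. All 14 genes of a macrophage list, among them *Adgre1*, *Cd68* and *Lyz2*, were called higher in them than in the other cells, as were 18.3% of all genes tested.

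Both receptors were concentrated in the myeloid-marker cells. *Csf1r* was at 442, 315, 253, 285, 388 and 333 CPM in the myeloid-marker cells of Day 2 A and B, Day 7 A and B, and Day 10 A and B, against 0.137 to 0.865 CPM in all other cells. These few cells held between 70.2% and 93.4% of the *Csf1r* UMIs of their library. *Tnfrsf11a* was at 67.1, 35.4, 84.5, 92.3, 71.3 and 68.7 CPM in them and at 0.118 to 0.721 CPM in the others, and they held between 9 of 30 (Day 2 replicate B) and 76.8% (Day 7 replicate B) of its UMIs. In the myeloid-marker cells the *Csf1r* levels of Day 2 and Day 10 overlapped and those of Day 7 lay below both, and for *Tnfrsf11a* the Day 7 values were the highest. A *Csf1r* UMI was seen in 52.6% to 88.7% of them and in 0.188% to 1.06% of the other cells, while a *Tnfrsf11a* UMI was seen in 31.6% to 72.7% and in 0.128% to 1.39%. The other cells include those with 1 or 2 gate genes, and the part of RNA free in the droplets in these shares was not tested.

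RANKL gave few UMIs in the same cells. Their *Tnfsf11* UMIs numbered 0, 0, 0, 1, 5 and 5 over the 6 libraries. Where there were 0 UMIs, a level of up to 5.59 and 11.8 CPM on Day 2 and 3.09 CPM in Day 7 replicate A (the level of 3 counts) is allowed. Each of these lies above the level of the other cells, so at those depths no difference was detectable. The 1 UMI of Day 7 replicate B has an exact Poisson upper limit of 4.32 CPM, above the 2.13 CPM of the other cells, so none was detectable there either. *Tnfrsf11b* gave 1, 1, 3, 4, 10 and 31 UMIs, or 1.86 to 7.12 CPM against 7.72 to 23.7 CPM in the other cells. On Day 2 the single UMI of each library has an exact Poisson upper limit of 10.4 and 21.9 CPM, above the 7.72 and 7.96 CPM of the other cells, so no difference was detectable there. *Csf1* was at 5.59, 11.8, 13.4, 16.3, 12.1 and 13.8 CPM in the myeloid-marker cells and at 9.40, 9.41, 29.4, 29.2, 42.3 and 40.2 CPM in the others, so that the sides overlapped on Day 2 and stood apart from Day 7. At most 0.647% of the *Csf1* UMIs, 0.567% of the OPG UMIs and 0.532% of the RANKL UMIs of any library lay in these cells. *Il34* gave 0, 0, 1, 0, 5 and 1 UMIs in them.

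With the library as a block, 46.8% of the 15794 genes tested differed between the sides, 18.3% higher and 28.5% lower in the myeloid-marker cells. Of the members, both receptors were called higher, *Csf1r* by a log2 difference of 10.17 (SE 0.38, adjusted p = 6.3e-10) and *Tnfrsf11a* by 7.90 (SE 0.36, adjusted p = 4.0e-09). The decoy was called lower, at -2.14 (SE 0.24, adjusted p = 1.6e-05), as were *Tnfsf11*, at -1.84 (SE 0.43, adjusted p = 0.0037), and *Csf1*, at -1.35 (SE 0.19, adjusted p = 0.00012). *Il34* was not called, with a log2 difference of 0.49 (SE 0.64, adjusted p = 0.56), and its sign turned without Day 10 replicate A (-0.53). *Pdgfrb*, the gene beside *Csf1r* in the genome and a receptor of mesenchymal cells, was lower in the myeloid-marker cells, at -1.60.

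**Figure D2:**
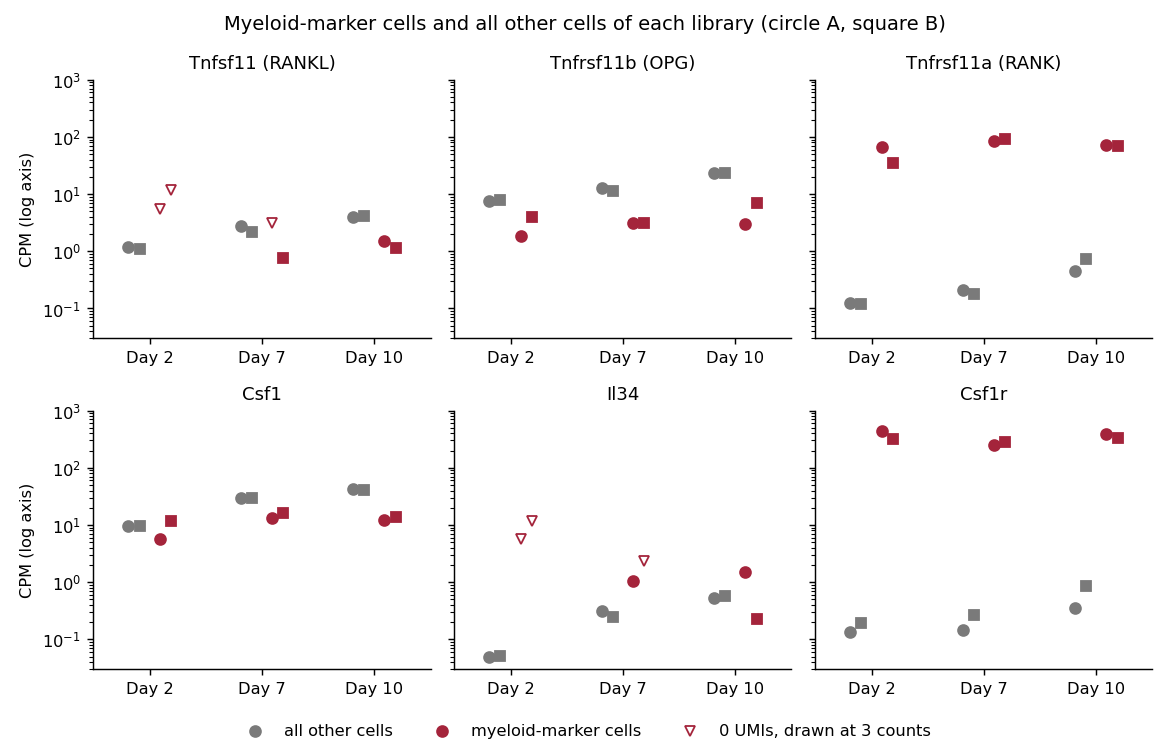
Level of each member in CPM (log axis) in the myeloid-marker cells (red) and in all other cells (grey) of each library, with a circle for replicate A, a square for replicate B and an open triangle at the level of 3 counts where no UMI was seen. *Csf1r* (253 to 442 CPM) and *Tnfrsf11a* (35.4 to 92.3 CPM) lie far higher in the red cells of every library, whereas *Tnfrsf11b* and *Csf1* lie higher in the grey ones from Day 7, the Day 2 *Tnfrsf11b* points of the red cells resting on 1 UMI each.

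From Day 7 to Day 10 the receptors rose outside the gate as well. In all other cells *Csf1r* was at 0.137 and 0.191 CPM on Day 2, 0.145 and 0.266 on Day 7, and 0.354 and 0.865 on Day 10, and *Tnfrsf11a* at 0.127 and 0.118, then 0.207 and 0.181, then 0.451 and 0.721. With the sums of these cells alone, *Tnfrsf11a* kept its calls in both steps (log2 changes of 0.95, adjusted p = 0.023, and 1.57, adjusted p = 0.0013), while *Csf1r* was not called from Day 2 to Day 7 (0.62, adjusted p = 0.29) and was called from Day 7 to Day 10 (1.55, adjusted p = 0.016). The summed level of the 14 macrophage genes in these cells moved too, from 3.76 and 4.07 CPM on Day 2 and 4.18 and 4.31 on Day 7 to 6.65 and 9.75 on Day 10, and that of the 6 gate genes from 0.551 and 1.31 through 0.959 and 1.39 to 2.79 and 7.94. None of the 14 genes was at 0 in the other cells of any library. Their part in the receptor values was not tested.

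In the fit the gap between the sides was narrower on Day 10 than on Day 7 for both receptors. The log2 difference was -1.06 (SE 0.22, adjusted p = 0.00040) for *Csf1r* and -1.84 (SE 0.47, adjusted p = 0.0086) for *Tnfrsf11a*. These p-values use a spread shared over genes, which leaves out the spread of a single gene between the 2 cultures of a day. By library, the *Tnfrsf11a* gaps of the 2 days stood apart, but the *Csf1r* gaps overlapped. The *Csf1r* gap of Day 10 replicate A (388 against 0.354 CPM) was wider than that of Day 7 replicate B (285 against 0.266 CPM). Of all genes, 1.49% were called, 0.576% with a higher and 0.918% with a lower difference between the sides on Day 10. That background rests on 236 genes called, and on 72 to 287 with a library left out, 137 with a gate of at least 2 genes and 39 in DESeq2. For *Csf1r* much of the difference rested on Day 10 replicate B, without which it was -0.24. For *Tnfrsf11a* it was -1.48 without that library, and neither receptor was then called. The *Csf1r* call was also lost without Day 7 replicate A (-0.75, adjusted p = 0.25), with a gate of at least 2 genes (-0.71, adjusted p = 0.28) and in DESeq2 (-0.997, adjusted p = 1), and the *Tnfrsf11a* call without Day 7 replicate B (-1.65, adjusted p = 0.15) and with a gate of at least 4 genes (-1.55, adjusted p = 0.14). In Day 10 replicate B, 60 cells had exactly 2 gate genes, just outside the gate, and 6 of them carried 99 of the 198 *Csf1r* UMIs found outside it. Another count of the same cells gave 21 of the 165 *Tnfrsf11a* UMIs, in 4 of them. In Day 10 replicate A, the 36 such cells held 2 *Csf1r* UMIs and 1 *Tnfrsf11a* UMI. *Tnfsf11* and *Il34* had 1 UMI each in the myeloid-marker cells of Day 7, too few for an estimate, and *Csf1* and *Tnfrsf11b* were not called.

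Receptor pairing was counted cell by cell. A UMI of both *Csf1r* and *Tnfrsf11a* was seen in 14 of 24 and 5 of 19 myeloid-marker cells on Day 2, in 23 of 33 and 38 of 53 on Day 7, and in 89 of 142 and 124 of 198 on Day 10, or 58.3%, 26.3%, 69.7%, 71.7%, 62.7% and 62.6%. Cells with *Csf1r* alone numbered 6, 5, 6, 8, 37 and 40, and cells with *Tnfrsf11a* alone 0, 1, 1, 0, 2 and 2. A RANK UMI without a CSF1R UMI was thus rare among them in every library. The lowest share, in Day 2 replicate B, came with the lowest median depth of such cells, 12088 UMIs against 18788 to 28431 in the others. In that library the 8 cells with exactly 3 gate genes held 2 *Csf1r* UMIs and 0 *Tnfrsf11a* UMIs. Of its 8 cells with all 6 gate genes, 7 had a *Csf1r* UMI and 5 had a *Tnfrsf11a* UMI. The part of depth and of the gate in this share was not tested.

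The myeloid-marker cells were then divided, after their values had been seen, by whether they held a UMI of *C1qa*, *C1qb* or *C1qc*, which encode the chains of complement C1q made by macrophages. On Day 7, 4 and 13 of them had none, and on Day 10, 20 and 36. The C1q genes are 3 of the 6 gate genes, so a cell without them holds *Tyrobp*, *Fcer1g* and *Trem2* together, which a cell with C1q need not. The cells without C1q were also deeper, with medians of 39636 and 28589 UMIs against 27187 and 21760 on Day 7. On Day 10 the medians were 24942 and 26280 against 20302 and 19050. The part of this selection in the values below was not tested. *Tnfrsf11a* was at 118 CPM (95% interval 88.1 to 154) in the cells without C1q of Day 10 replicate A and at 64.0 (55.1 to 74.0) in those with it, and at 89.0 (71.2 to 110) and 62.9 (54.8 to 72.0) in replicate B. These exact Poisson intervals cover counting error only, and in replicate B those of the subsets overlap narrowly. On Day 7 the values were 133 and 77.1 CPM in replicate A and 106 and 86.1 in replicate B, with overlapping intervals. RANK was higher in the cells without C1q in all 4 libraries. *Csf1r* was lower without C1q in 3 of the 4 libraries. On Day 10 it was at 419 (362 to 484) and 383 (361 to 407) CPM in the cells without and with C1q of replicate A and at 306 (272 to 343) and 340 (321 to 360) in replicate B. The Day 7 values were 234 (158 to 335) and 256 (223 to 293) CPM in replicate A and 212 (169 to 261) and 319 (283 to 359) in replicate B, the only library in which the *Csf1r* intervals did not overlap. The 15 osteoclast genes summed to 1492 and 3252 CPM in the cells without C1q on Day 7 and to 9768 and 8650 on Day 10, against 223, 281, 207 and 375 in the cells with it. For *Acp5* (tartrate-resistant acid phosphatase) the Day 10 values were 5309 and 3611 CPM without and 23.9 and 24.8 with C1q. For *Ctsk* they were 3101 and 3322 CPM without and 25.3 and 137 with it. Both genes together made up most of the Day 10 sums of the cells without C1q. The cells with C1q were not without such genes, and held 54 of the 68 *Ctsk* UMIs of the myeloid-marker cells of Day 7 replicate A. In Day 7 replicate B they held 102 of 545, and on Day 10 they held 72 of 1470 in replicate A and 465 of 3676 in replicate B. All 5 *Il34* UMIs of the myeloid-marker cells of Day 10 replicate A were in 3 of these cells without C1q.

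**Figure D3:**
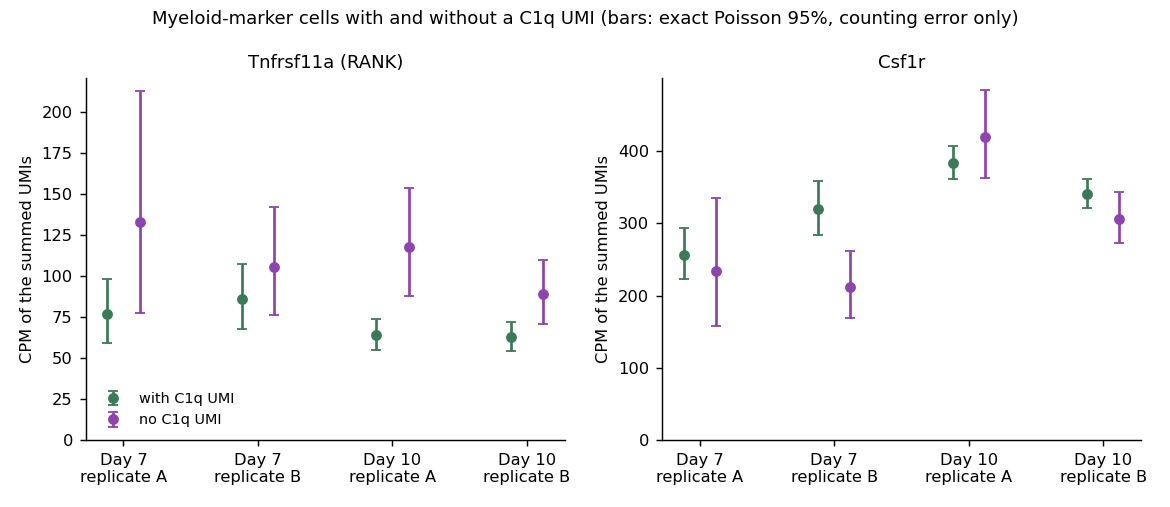
Level of *Tnfrsf11a* (left) and *Csf1r* (right) in CPM (vertical axes, from 0) in the myeloid-marker cells with and without a C1q UMI of each Day 7 and Day 10 library, with exact Poisson 95% intervals that cover counting error only. *Tnfrsf11a* lies higher without C1q in all 4 libraries, and *Csf1r* lies lower without it in all but Day 10 replicate A.

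For the ligands and the decoy, the cells of each day were clustered on genes that left out the members and the pathway lists, which gave 12 clusters on Day 2, 17 on Day 7 and 19 on Day 10. Values by cluster are a description of 2 libraries and carry no test. A cluster is called "-like" from at least 3 enriched markers. It goes by its number and leading genes where it has fewer, where its 10 leading genes hold more markers of another type, where it is shallow and none of its markers is among them, or where its leading genes are of the cell cycle or the mitochondrion.

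On Day 10, *Tnfsf11* was highest in cluster 3, which has no name and is led by *Nrgn*, *Steap4*, *Igf1*, *Pi15* and the tendon gene *Tnmd*. It was at 14.3 and 14.8 CPM there, and 19.1% and 21.0% of the cells had a UMI (1.47% and 1.55% after thinning to 1000 UMIs a cell). The cluster made up 8.77% and 8.92% of the cells and held 33.8% and 37.3% of the RANKL UMIs, and its replicates did not overlap those of any other cluster. Next came cluster 14, led by *Msln*, *Sncg* and *Wnt10a*, at 9.20 and 7.20 CPM, and the perichondrium-like cluster 1, at 9.87 and 5.52 CPM, which overlapped each other. The immune-like cluster 16 had the lowest mean, at 1.03 and 0.771 CPM. At 2 times the resolution the highest cluster stood at a mean of 23.5 CPM in place of 14.6.

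*Tnfrsf11b* had another peak. The bone-like cluster 15, led by *Ifitm5*, *Ibsp* and *Hs3st6*, stood at 136 and 128 CPM, and 75.0% and 74.1% of its cells had a UMI. It did not overlap the next, the chondrocyte-like cluster 11, at 35.2 and 42.0 CPM. Being small, the bone-like cluster held only 12.3% and 13.2% of the decoy UMIs, whereas the contractile mesenchyme-like cluster 0, at 32.4 and 30.8 CPM, held 30.2% and 27.2%. The bone-like cells held 5 and 16 RANKL UMIs against 747 and 720 decoy UMIs.

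*Csf1* was broad on Day 10. It was highest in the chondrocyte-like cluster 11, at 109 and 96.2 CPM, then in the perichondrium-like cluster 1, at 94.7 and 87.2, and in cluster 14, at 88.1 and 71.3. The first of these lies above the others by a narrow margin, and both it and cluster 1 are shallow, with medians of 8383 and 8244 and of 5314 and 4234 UMIs a cell. The chondrocyte-like clusters 10 and 9, shallow as well, stood at means of 69.9 and 68.6 CPM. The deep chondrocyte-like cluster 4, with medians of 39054 and 35558 UMIs a cell, stood at a mean of 27.7 CPM. In cluster 14, whose median cell held 38266 and 33555 UMIs, 83.8% and 80.9% of the cells had a *Csf1* UMI. The immune-like cluster was again lowest, at 4.47 and 10.5 CPM. The highest *Il34* cluster overlapped the next on each day, and no cell of any library held more than 3 of its UMIs.

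**Figure D4:**
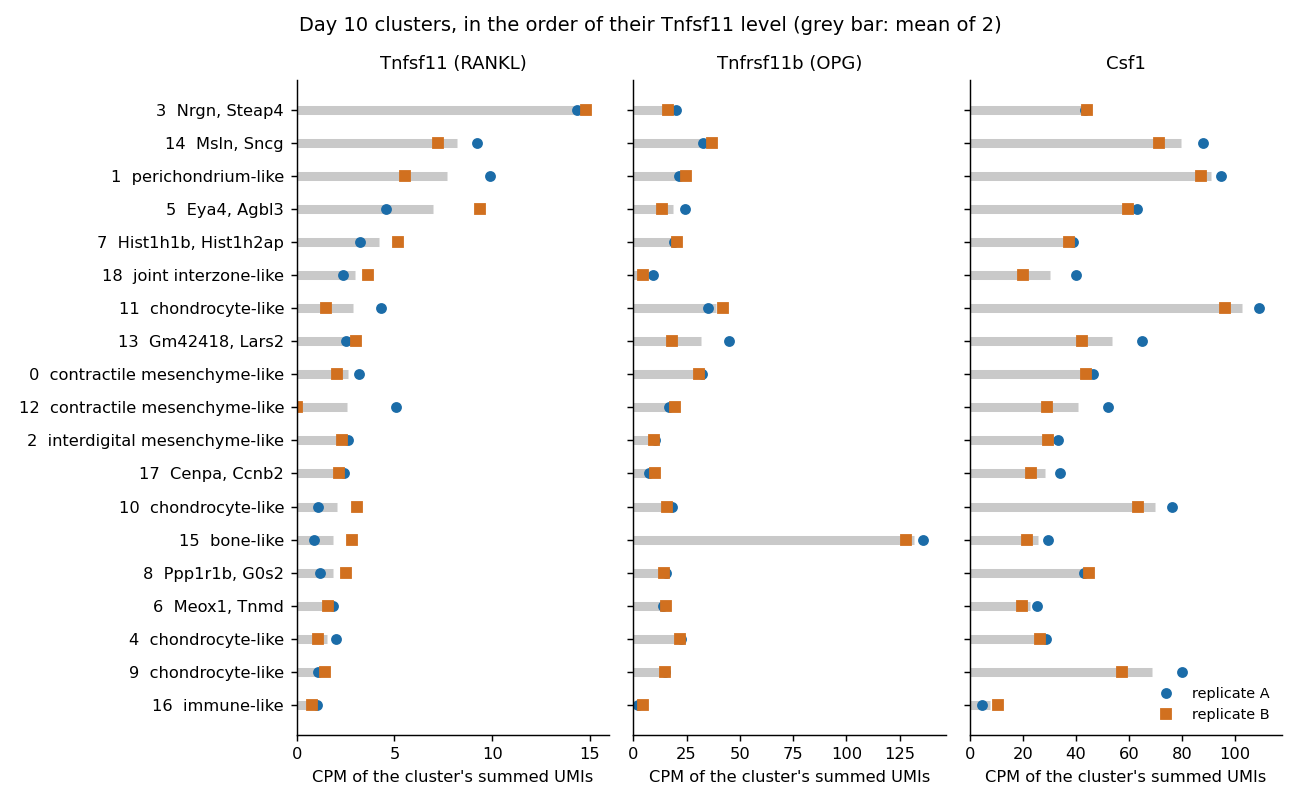
Level of *Tnfsf11*, *Tnfrsf11b* and *Csf1* in CPM (horizontal axes, from 0) in each of the 19 Day 10 clusters, ordered by the mean *Tnfsf11* level, with a circle for replicate A, a square for replicate B and a grey bar for their mean. RANKL peaks in cluster 3, the decoy in the bone-like cluster 15 and *Csf1* in the shallow chondrocyte-like cluster 11. The deep chondrocyte-like cluster 4 is low in *Csf1*, at a mean of 27.7 CPM.

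The immune-like cluster 16 of Day 10, with 118 and 163 cells, held 91.6% and 91.0% of the *Csf1r* UMIs, at 431 and 385 CPM, and 65.8% and 66.8% of the *Tnfrsf11a* UMIs, at 79.4 and 79.7 CPM. RANK had a further place that CSF1R lacked. Cluster 14 held 19 and 63 *Tnfrsf11a* UMIs, 3.49 and 5.40 CPM, in 9.56% and 16.9% of its cells, with 0 and 9 *Csf1r* UMIs. It was 1.31% and 3.22% of the cells of its libraries. The 14 macrophage genes summed to 13.98 and 18.0 CPM in it. By mean level, cluster 14 took place 2 of the 19 for both RANKL and RANK, but its RANKL values overlapped those of clusters 1 and 5, and its RANK values those of cluster 12 (2.55 and 3.87 CPM, from 4 UMIs each).

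On the earlier days an immune-like cluster again held most *Csf1r* UMIs. On Day 2 this was cluster 11, with 20 and 8 cells, which held 89.4% and 68.4% of the *Csf1r* UMIs, and 58.1% of the *Tnfrsf11a* UMIs in replicate A but 26.7%, 8 of 30, in replicate B. On Day 7 the immune-like cluster 15, with 28 and 43 cells, held *Csf1r* at 266 and 315 CPM and *Tnfrsf11a* at 88.3 and 102 CPM, 64.8% and 75.5% of the RANK UMIs. *Tnfsf11* was at 7.27 and 6.49 CPM in cluster 11, which is led by the cell cycle genes *Neil3*, *Ncapg2* and *Hjurp* and enriched for 4 perichondrium markers, from 10 and 7 UMIs, and at 6.09 and 5.71 CPM in the tenocyte-like cluster 7, led by *Pcp4*, *Igf1* and *Tnmd*, from 68 and 75 UMIs. *Csf1* was highest in the chondrocyte-like cluster 8, at 89.4 and 90.1 CPM, and no other cluster overlapped it. Cluster 8 is shallow, with medians of 7561 and 6954.5 UMIs a cell. The other chondrocyte-like clusters 1, 12 and 16 stood at *Csf1* means of 29.2, 22.3 and 12.1 CPM, the first of them deep (27863 and 27332 UMIs). *Tnfrsf11b* stood at 25.4 and 28.1 CPM in cluster 8, and the clusters with a higher mean rest on 7 UMIs or fewer. On Day 2, cluster 1, led by *Krt19*, *2200002D01Rik* and *Krt18* and enriched for 6 of 7 contractile mesenchyme markers, among them *Acta2* and *Tagln*, held 52.9% and 40.8% of the RANKL UMIs at 2.31 and 2.25 CPM. Day 2 *Csf1* was at 17.4 and 14.1 CPM in cluster 7 and at 15.0 and 16.5 in cluster 1, and Day 2 *Tnfrsf11b* at 13.3 and 10.0 in the chondrocyte-like cluster 6 and at 9.88 and 11.7 in cluster 2. The members of each of these pairs overlapped. Of the 10 leading genes of cluster 7, 9 are mitochondrial, and its median cell held 2934 and 2984 UMIs. In the clustering without integration, which also used another normalization, the highest *Csf1* cluster of Day 2 stood at a mean of 24.1 CPM in place of 15.8.

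Ligand and decoy were set against each other in the clusters with at least 10 RANKL UMIs in each replicate, which were 3 of 12 on Day 2, 6 of 17 on Day 7 and 10 of 19 on Day 10. This limit left out the bone-like cluster 15 of Day 10, which had the highest decoy level and few RANKL UMIs. On Day 10 cluster 3, led by *Nrgn* and *Steap4*, had 1.39 and 1.12 OPG UMIs per RANKL UMI, the contractile mesenchyme-like cluster 0 had 10.1 and 15.0, and the chondrocyte-like cluster 4 had 11.2 and 20.5. The first of these did not overlap any other of the 10, of which cluster 5, with 5.27 and 1.45, came nearest. On Day 7 the tenocyte-like cluster 7 was lowest, with 1.38 and 1.59, and the chondrocyte-like cluster 1 highest, with 8.30 and 10.8. On Day 2 cluster 1 had 3.40 and 3.66, and clusters 2 and 3 had 7.24 and 9.93 and 10.7 and 7.46. *Igf1* and *Tnmd* are among the leading genes of the lowest cluster on both later days. *Tnmd* alone did not mark a low ratio, since Day 10 cluster 6, led by *Meox1*, *Tnmd*, *Ptn* and *Scx*, had 7.48 and 9.43 OPG UMIs per RANKL UMI and *Tnfsf11* at 1.87 and 1.62 CPM.

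Single cells seldom held more than a trace of RANKL. Between 69.5% and 84.1% of the cells with a *Tnfsf11* UMI had exactly 1, and the highest cell of all libraries had 13. Of the cells with a RANKL UMI, 12.1%, 12.7%, 18.1%, 21.2%, 26.2% and 24.4% also had an OPG UMI, against 9.80%, 5.45%, 12.8%, 12.6%, 24.99% and 23.3% of all cells. The cells with a RANKL UMI were deeper, with medians between 28804 and 33370 UMIs. After thinning to 1000 UMIs a cell, the share of cells with a *Tnfsf11* UMI was 0.0945%, 0.111%, 0.279%, 0.199%, 0.437% and 0.450% over the 6 libraries.

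The genes whose log2(CPM + 1) followed that of each member most closely over the 47 clusters of all days with at least 10 cells in both libraries (all but the Day 2 immune-like cluster), among genes with a mean of at least 5 CPM, are given as a description, because the clusters share libraries and depth. For *Tnfsf11* they were *Pi15* (Pearson's r = 0.83), *Sardh* (0.78), *Fndc1* (0.78), *Cx3cl1* (0.77) and *Fgf7* (0.77). For *Tnfrsf11b* they were *Fkbp10* (0.84), *Serpine2* (0.81) and *Aldh18a1* (0.80), and for *Csf1* they were *Osmr* (0.89), *Col6a1* (0.88) and *Col6a3* (0.88). The receptors followed myeloid genes, *Csf1r* with *Fcgr3* (0.99) and *C1qc* (0.98), and *Tnfrsf11a* with *Ms4a6d*, *Adgre1*, *C1qb*, *C1qc* and *Cd14* (0.95 each). These values rest mostly on the immune-like clusters of Day 7 and Day 10. There *Csf1r* had means of 290 and 408 CPM, against at most 11.5 in any other cluster, and *Tnfrsf11a* 95.3 and 79.5 CPM, against at most 4.45. For *Il34*, with few UMIs, they were *Isg15* (0.75) and *Cd59a* (0.75).

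Of 30 listed partners and regulators of RANKL and OPG, 26 could be tested. From Day 2 to Day 7, 13 rose, 8 fell and 5 were not called, with a median log2 change of 0.09, where 35.7% of all genes rose and 34.6% fell. From Day 7 to Day 10, 20 rose, 2 fell and 4 were not called, with a median of 0.44, where 26.3% of all genes rose and 25.9% fell. *Vdr*, the vitamin D receptor, an inducer of RANKL in stromal cells, went from a mean of 0.369 CPM on Day 2 to 5.91 on Day 7 and 7.79 on Day 10 (log2 changes of 4.29 and 0.38). *Pth1r*, the receptor for PTH and PTHrP, went from 61.2 to 86.0 and 193 CPM, while *Pthlh*, which encodes PTHrP, fell from 16.3 to 2.16 and 0.923 CPM (log2 changes of -2.64 and -1.24). *Ptgs2*, the enzyme of prostaglandin synthesis, rose from 14.6 to 23.6 and 47.2 CPM, and *Sema3a*, a secreted inhibitor of osteoclast formation, fell to Day 7 by a log2 change of -1.42 and then rose by 0.21. *Wnt5a* went from 91.6 to 39.1 and 47.7 CPM, *Wnt16* from 10.3 to 11.9 and 17.6 CPM, and *Lgr4*, a further receptor for RANKL, was called in neither step (-0.04 and -0.00). *Tnf* (log2 difference 11.12) and *Il1b* (12.03) were among 6 of 25 genes higher in the myeloid-marker cells, and 17 were lower, against 18.3% and 28.5% of all genes.

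Downstream of RANK, 20 of 21 listed genes were tested. 7 rose, 7 fell and 6 were not called to Day 7, and 7 rose, 5 fell and 8 were not called from there to Day 10, with medians of 0.01 and 0.04. The shares to Day 7 were close to those of all genes (35.7% and 34.6%), and in the second step 26.3% and 25.9% of all genes rose and fell. From Day 2 to Day 10, 8 rose and 10 fell, with a median of -0.10, where 39.0% of all genes rose and 38.2% fell. Among them the NF-kB subunits *Nfkb2* (log2 change 1.04), *Relb* (0.98) and *Rela* (0.86) rose and the adaptor *Traf6* (-0.64) and the transcription factor *Nfatc1* (-0.51) fell in the whole cultures. *Nfatc1*, the master regulator of osteoclast genes, was higher in the myeloid-marker cells by a log2 difference of 1.68, and so was *Gab2*, a RANK adaptor, by 2.67, among 10 of 20 genes higher and 1 lower (18.3% and 28.5% of all genes). Downstream of CSF1R, 9 of 12 listed genes were higher and 1 was lower in the myeloid-marker cells, led by *Spi1* (11.14), which encodes PU.1, *Inpp5d* (9.61) and *Tfec* (7.10). In the whole cultures 4 of the 12 rose and 3 fell to Day 7, shares at or below those of all genes, and 6 rose and 3 fell from Day 7 to Day 10 (26.3% and 25.9% of all genes), when *Spi1* went from a mean of 1.66 to 5.85 CPM.

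Genes of the osteoclast, which RANK signalling turns on, were listed as well. Of 13 listed genes that could be tested, 6 rose to Day 7 and none fell, and 12 rose and 1 fell, *Nfatc1*, from Day 7 to Day 10, with medians of 0.60 and 1.05. Of all genes, 35.7% rose and 34.6% fell in the first step and 26.3% rose and 25.9% fell in the second. *Acp5* went from a mean of 4.07 to 8.16 and 30.2 CPM and *Ctsk*, the collagen-degrading protease cathepsin K, from 5.46 to 19.96 and 41.9 CPM. Most UMIs of both lay outside the myeloid-marker cells in every library, although both stood at a higher level in those cells from Day 7. On Day 10 *Acp5* was at 747 and 821 CPM in them against 11.4 and 24.8 in the other cells. *Ctsk* was at 446 and 845 CPM against 28.0 and 35.5. The other cells of Day 10 replicate B held 159 UMIs of the osteoclast gene *Atp6v0d2*, against 10 in replicate A. The part of myeloid cells missed by the gate was not tested. For *Ctsk* the other cells held 1206, 900, 3880, 3664, 7185 and 8117 UMIs against 0, 0, 68, 545, 1470 and 3676 in the myeloid-marker cells, and for *Acp5* 831, 710, 1437, 1328, 2941 and 5683 against 13, 9, 125, 441, 2461 and 3574. The remaining listed genes, *Calcr* and *Siglec15*, had a mean of at most 0.0395 CPM at any day and were not tested.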

How the data were processed

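DID cultures were profiled by droplet 3′ single-cell RNA sequencing. Per the submitters' processing notes and the study's methods, the authors used Cell Ranger 6.1.2 with GRCm38 (mm10) for alignment and UMI counting, and Seurat 4.1.0 for their own analysis. The deposited matrices hold these raw UMI counts, without normalization, for barcodes called as cells by the authors.

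From these counts, the study's limits per library were applied (at least 800 or 1000 UMIs, 200 to 7500 genes, at most 25% to 40% mitochondrial and 35% or 40% ribosomal UMIs). UMIs were summed per library, or per library and side of the myeloid gate, and tested with edgeR 4.0.16 (filterByExpr, TMM factors, quasi-likelihood test, Benjamini-Hochberg adjustment over all genes tested, call at an adjusted p under 0.05, n = 2 per day, all 6 libraries in each fit). CPM are scaled to library totals without TMM factors, which were 1.12 and 1.14 on Day 2 and between 0.927 and 0.952 on the later days. Fitted rises from Day 2 are therefore larger than the ratios of the printed CPM, in the same direction for every gene. The replicates are separate cultures, and p-values measure their spread, except in the comparison of the gate between Day 7 and Day 10. There they use a spread shared over genes, which leaves out a gene's own spread between cultures. Clusters were rebuilt per day with Seurat 5.3.0 and sctransform 0.4.2 (R 4.3.3) by integration over 3000 features, less 52, 57 and 65 members and list genes at Day 2, Day 7 and Day 10, with 35 dimensions and a resolution of 0.5, 0.5 and 0.7. Clusters were summed only in libraries where they had at least 10 cells. Cluster names need 3 markers enriched by a log2 fold change of at least 1 and leading genes that do not go against the name, a rule chosen with the leading genes already known.

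Named genes are the members, the genes of the fixed lists, leading cluster genes and the 5 genes most like each member. The members and lists were chosen with earlier results of these data known. DESeq2 1.42.0, RLE factors, other filters and gates, all barcodes, the replicate letter as a block, and other clusterings were tried as alternatives. The clustering without integration also used another normalization in place of sctransform and, unlike the main one, did not regress out the cell cycle. The tests of Day 7 against Day 2 and of the sides of the gate were run on simulated data with the same spread for every gene. The comparison of the gate between days was not simulated. Limits on single-cell shares are exact binomial. Staining and imaging were not analysed here. Promoters are credited to RefSeq, genes to GENCODE.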

Additional observations from a re-analysis of the deposited data

Results flagged for a closer look

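The contrast between myeloid-marker cells and all other cells was called as different between Day 10 and Day 7 for both receptors, in the test of the difference itself. That test uses a spread shared over genes. The *Csf1r* contrasts of single libraries overlapped between the days, that of Day 10 replicate A being wider than that of Day 7 replicate B. The log2 difference between the contrasts was -1.06 for *Csf1r* and -1.84 for *Tnfrsf11a*. In the myeloid-marker cells *Csf1r* went from 253 and 285 CPM at Day 7 to 388 and 333 CPM at Day 10, and in the other cells from 0.145 and 0.266 CPM to 0.354 and 0.865 CPM. *Tnfrsf11a* went from 84.5 and 92.3 CPM to 71.3 and 68.7 CPM in the myeloid-marker cells and from 0.207 and 0.181 CPM to 0.451 and 0.721 CPM in the others. Of the 14 genes of the macrophage list, 2 were lower, *Cx3cr1* at -2.20 and *Spi1* at -1.42, 1 was higher, *Laptm5* at 0.97, and 11 were not called, with a median of -0.49, where 0.918% of all genes were lower and 0.576% higher. The 6 gate genes define the sides, so their values are only a description: 4 were lower, with a median of -1.11. Neither receptor was called without Day 10 replicate B, where the values were -0.24 and -1.48.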

How the results depend on the processing

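Of 409 alternative values, 372 were taken as the same, by a rule for each kind of value. A fold change had to keep its direction and its side of the threshold. A count of genes called had to stay within a set factor of the first count. A cluster level had to move by less than the replicate spread. Every member call from Day 7 to Day 10 and from Day 2 to Day 10 held under the alternatives run. From Day 2 to Day 7 the *Csf1r* change was not called in DESeq2 (1.09, adjusted p = 0.051) or in cells outside the gate (0.62), and ranged from 0.68 to 1.72 with a library left out. In the comparison of the gate between days, leaving out libraries (added after the data were seen) gave -1.72 to -0.24 for *Csf1r*, -2.18 to -1.48 for *Tnfrsf11a*, -0.96 to 0.29 for *Tnfrsf11b* and 72 to 287 genes called in place of 236. A gate of at least 2 genes gave 137 genes, -0.71 for *Csf1r* and 0.90 for *Tnfrsf11b*, a gate of at least 4 gave -1.55 for *Tnfrsf11a* and 0.46 for *Tnfrsf11b*, and DESeq2 gave 39 genes and -0.997 for *Csf1r*, where *Tnfrsf11b* was -0.15 at first. For *Il34* the difference between the sides of the gate was -0.083 with all deposited barcodes and -0.53 to 1.14 with a library left out. The cause of these changes was not tested.

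The replicate letters did not pair the libraries (correlation of deviations -0.016, -0.057 and -0.0077). With the letter as a block, 13135, 9607 and 14524 genes were called in place of 13342, 9913 and 14670, and no member call changed (*Csf1r* to Day 7, 1.07, adjusted p = 0.031).

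The mean CPM of the highest cluster moved with the clustering. At 2 times the resolution and without integration it was 2.51 and 3.30 for Day 2 *Tnfsf11* (2.28 at first), 15.9 and 15.5 for Day 2 *Tnfrsf11b* (11.7), 22.5 and 24.1 for Day 2 *Csf1* (15.8), 6.0 and 5.54 for Day 7 *Tnfsf11* (6.88), 88.9 and 61.3 for Day 7 *Csf1* (89.7), 23.5 and 15.9 for Day 10 *Tnfsf11* (14.6), and 79.8 and 77.9 for Day 10 *Tnfrsf11a* (79.5). It was 115 for Day 10 *Csf1* at 2 times the resolution (103) and 0.365 for Day 2 *Il34* without integration (0.126). The clustering without integration also changed the normalization, so its shifts cannot be assigned to integration alone. Few UMIs limit what can be said of *Il34* and of RANKL in myeloid-marker cells.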

Other observations

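RANKL and CSF1 were often seen in the same cells. Of the cells with a *Tnfsf11* UMI, 30.8%, 23.6%, 51.7%, 49.7%, 61.4% and 65.3% also had a *Csf1* UMI, in the order of Day 2 A and B, Day 7 A and B, and Day 10 A and B, against 14.2%, 7.37%, 26.6%, 26.6%, 46.5% and 42.6% of all cells. The cells with a RANKL UMI were also the deeper ones, and the part of depth in these shares was not tested.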
